A study of Mus musculus with 6 samples.

Results

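The 34 genes described here encode the proteins that take up, activate and oxidise fatty acids, with 2 uncoupling proteins. They were chosen by gene symbol from a written list, and all 34 were found among the 43346 genes of the count table. RNA-seq was run on limb bones of mouse pups of the C57BL/6 strain at 1 day of age, in 3 libraries labelled Hdac3 CKO and 3 labelled WT (wild type). The Hdac3 CKO group carries a conditional knockout of Hdac3 with Prx1 (labelled CKOPRX1), and no further allele or agent is named for either group. Forelimb and hindlimb bones were freed of soft tissue before lysis in TRIzol. Prx1-driven recombination is known to act in limb mesenchyme, the source of bone, cartilage and tendon, and to spare muscle fibres and blood cells, which also contribute RNA to whole bone. Whether the libraries stem from separate animals is not stated in the labels, and the p-values therefore reflect library-to-library spread that may be partly technical.

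Fatty acids are activated to acyl-CoA by synthetases, carried into mitochondria on carnitine and shortened stepwise by a spiral of dehydrogenation, hydration, a further dehydrogenation and thiolysis. The electrons of the opening step pass through the electron transfer flavoprotein to the respiratory chain, and peroxisomes run a separate spiral for very long and branched chains. Many of these genes are textbook targets of the PPAR nuclear receptors. HDAC3 is the deacetylase of the NCoR and SMRT corepressor complexes, which unliganded nuclear receptors recruit, and in mouse liver and muscle it is known as a regulator of lipid metabolism. Osteoblasts and chondrocytes can oxidise fatty acids, and skeletal muscle does so at a high rate.

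PPARs bind a direct repeat of the hexamer AGGTCA, spaced by 1 base, with RXR as the partner. The start-site windows of the genes were therefore searched, each reaching from 250 bases before to 50 bases after a RefSeq start site on GRCm38.p6. Of the 34 genes, 30 were matched, with 34 windows. The exact repeat, spelled AGGTCA, any base N, AGGTCA, was in 0 of the 34 windows and in 0.0396% of all 32851 RefSeq windows, read on both strands. The hexamer AGGTCA, in any number of copies, was in 5 windows (14.7%), beside 16.3% of all windows. These were the windows of Acadm, Acadvl, Cpt1a, Echs1 and Ucp3, and that of Ucp3 held 2 copies. The GC box GGGCGG was in 67.6% of the members' windows and 35.7% of all windows, and CCAAT in 44.1% and 37.4%. A match is a description of the letters and not evidence of binding. Windows of Cpt1a, Acadm, Acadvl and Ucp3, taken from the 5 with AGGTCA, are printed 5′ to 3′ on the gene's strand. The results single out the same genes, Acadvl and Ucp3 by their p, so the choice was not independent of the results. The window of Echs1 is not printed. Etfb, Ehhadh and Ucp2, which the results also name, had no AGGTCA in their windows. Capitals mark AGGTCA, or TGACCT where the hexamer lies on the opposite strand. Cpt1a is at chr19:3323051-3323350 (plus strand), Acadm at chr3:153944594-153944893 (minus strand), Acadvl at chr11:70015379-70015678 (minus strand) and Ucp3 at chr7:100472741-100473040 (plus strand).
Cpt1a: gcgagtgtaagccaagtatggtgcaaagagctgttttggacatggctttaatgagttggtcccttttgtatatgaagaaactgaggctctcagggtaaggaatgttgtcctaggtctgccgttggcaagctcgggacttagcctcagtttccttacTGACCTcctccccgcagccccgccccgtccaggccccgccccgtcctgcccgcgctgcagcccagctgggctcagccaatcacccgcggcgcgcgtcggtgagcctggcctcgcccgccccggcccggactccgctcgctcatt
Acadm: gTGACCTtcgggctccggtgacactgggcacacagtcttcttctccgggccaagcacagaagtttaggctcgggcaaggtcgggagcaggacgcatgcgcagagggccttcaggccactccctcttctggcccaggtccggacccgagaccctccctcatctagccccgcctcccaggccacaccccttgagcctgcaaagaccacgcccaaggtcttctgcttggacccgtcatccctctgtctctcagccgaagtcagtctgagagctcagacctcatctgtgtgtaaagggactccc
Acadvl: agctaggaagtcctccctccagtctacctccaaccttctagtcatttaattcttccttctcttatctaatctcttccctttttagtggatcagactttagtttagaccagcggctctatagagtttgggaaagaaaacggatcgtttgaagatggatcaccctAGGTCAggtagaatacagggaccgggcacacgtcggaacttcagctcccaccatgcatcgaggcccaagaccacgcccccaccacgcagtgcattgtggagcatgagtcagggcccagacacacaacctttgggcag
Ucp3: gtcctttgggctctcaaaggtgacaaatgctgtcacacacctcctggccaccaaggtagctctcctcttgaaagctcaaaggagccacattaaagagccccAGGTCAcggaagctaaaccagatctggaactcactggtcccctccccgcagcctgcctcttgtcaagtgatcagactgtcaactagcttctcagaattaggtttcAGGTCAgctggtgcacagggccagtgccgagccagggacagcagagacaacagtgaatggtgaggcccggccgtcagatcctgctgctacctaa

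Hadha and Hadhb, the subunits of the mitochondrial trifunctional protein, lie head to head on chromosome 5, 85 bases apart in the count table. Their RefSeq start sites are 273 bases apart. Their RefSeq windows overlap by 228 bases. The window of Hadhb, at chr5:30155003-30155302 (plus strand), is printed whole, and the shared stretch is its first 228 bases. The 4 matches to GGGCGG in the whole window, on either strand, are in capitals, and not all of them lie in the shared stretch.
Hadhb: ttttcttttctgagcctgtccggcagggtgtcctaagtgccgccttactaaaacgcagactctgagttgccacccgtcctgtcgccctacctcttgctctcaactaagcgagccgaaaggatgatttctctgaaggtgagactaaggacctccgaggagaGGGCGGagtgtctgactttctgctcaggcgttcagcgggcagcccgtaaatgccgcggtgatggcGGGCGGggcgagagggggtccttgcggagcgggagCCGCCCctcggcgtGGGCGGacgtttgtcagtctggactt

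Gene counts per library ranged from 43389262 to 50927978. Hdac3 had 31.8, 29.4 and 28.3 CPM (counts scaled to the library total after TMM normalisation) in Hdac3 CKO bones, against 48.4, 47.4 and 50.3 CPM in WT bones, which gave a log2 fold change of -0.71 ± 0.12 (SE, adjusted p 0.027). Part of the transcript remained in the whole tissue. That call was lost when any library other than Hdac3 CKO library 1 was left out, with adjusted p between 0.0167 and 0.126 over the 6 omissions. The libraries also differed in the RNA of cell type markers. Skeletal muscle markers, 20 genes with none at 0, summed to 64160, 45250 and 43440 CPM in Hdac3 CKO bones. In WT bones they summed to 39270, 45990 and 39150 CPM. CPM after TMM do not add up to the same total in each library, so these sums are not shares of the counts. Hdac3 CKO library 3 and WT library 3 were rich in cartilage markers. Osteoblast markers, the defining genes of bone, summed to 70480 to 100600 CPM in Hdac3 CKO bones and 45990 to 61150 CPM in WT bones. However, 0 of 10 passed the test, and 4 of 10 had log2 fold changes below 0. The list's medians per library overlapped between the genotypes. Of 8 macrophage markers 5 rose, and of 8 neutrophil markers 5 fell. The members are all nuclear genes at mm10 positions given by the count table, such as Cpt1a at chr19:3323301-3385732, Acadm at chr3:153922357-153944632, Acadvl at chr11:70010183-70015411, Etfb at chr7:43444108-43457800, Ehhadh at chr16:21761287-21787844, Ucp2 at chr7:100493337-100502020 and Ucp3 at chr7:100472990-100486432. In bulk bone, fewer or more cells of a type cannot be told apart from less or more RNA per cell.

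All 34 fatty acid oxidation genes passed the filter on low counts, and none rose or fell in Hdac3 CKO bones at an adjusted p under 0.05 (edgeR's quasi-likelihood test, Benjamini-Hochberg adjustment over 20210 genes). Over all genes tested, 0.703% rose and 0.475% fell. The smallest adjusted p of a member was 0.316, for Acadvl. At an unadjusted p under 0.05 there were 2 members, Acadvl and Ucp2, where 15.0% of all genes passed, so the members' share was below the background. Each of the 15 alternative settings, among them DESeq2, limma-voom and the omission of each library, also called 0 members.

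The genotype difference of each member in whole-bone RNA, scaled by TMM, was small and bounded. A change within the recombined cells alone is not bounded by these values. Log2 fold changes ran from -0.40 for Ehhadh to 0.43 for Etfb, with a median of 0.12, beside 0.00098 over all genes tested. The 95% interval lay within a 2-fold change either way for 34 of 34 members and for 68.0% of all genes, and within 1.5-fold for 20 of 34 members and 32.8% of all genes. The widest bounds over the members were -0.82 (Ehhadh) and 0.87 (Etfb). Differences above 0 were found for 24 members and below 0 for 10. All 3 Hdac3 CKO libraries lay above all 3 WT libraries for 3 members (Slc25a20, Hadhb and Ucp3), where 11.5% of all genes did so, and below them for 4 (Ehhadh, Abcd3, Acsl5 and Acot1), where 10.9% of all genes did. An exact permutation test of 3 against 3 libraries can give no two-sided p below 0.1, the value of each of these separated genes.

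**Figure D1:**
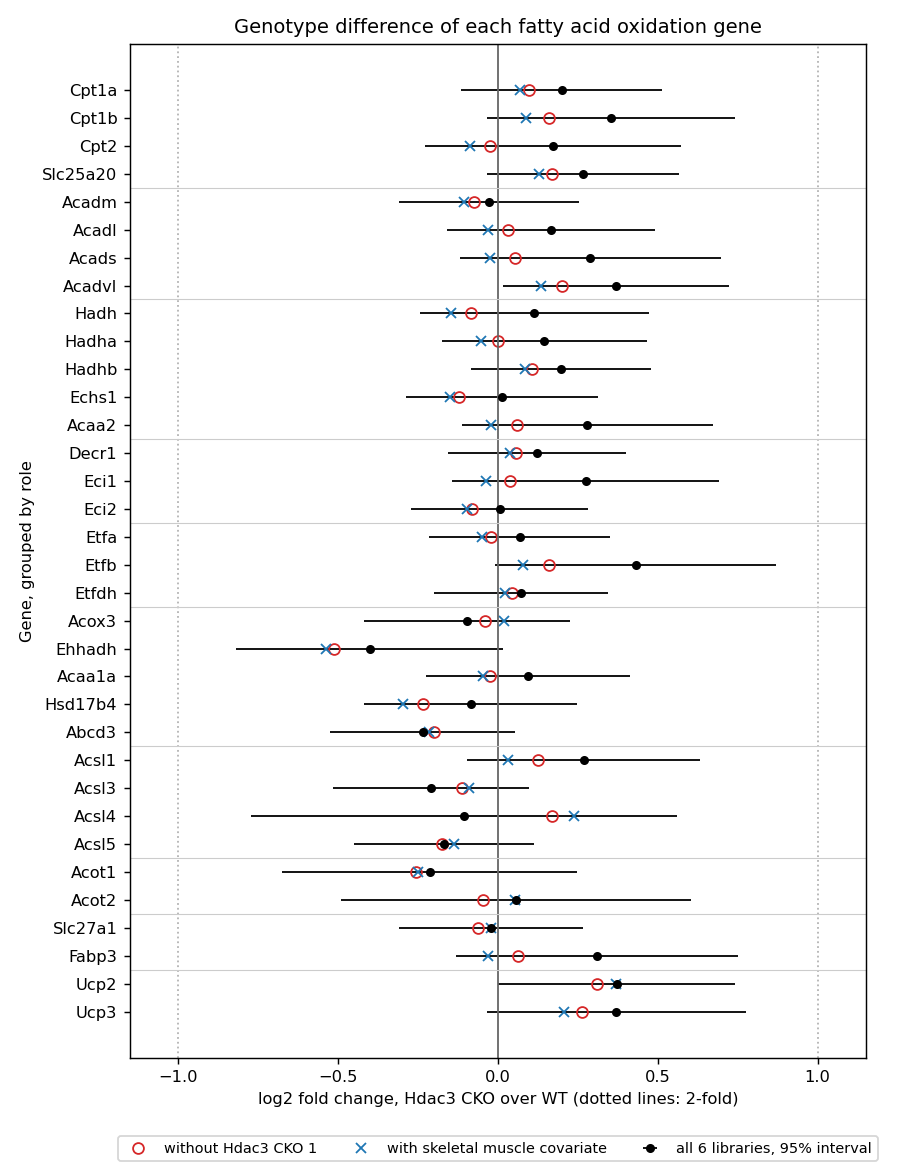
Log2 fold change (Hdac3 CKO over WT) of the 34 fatty acid oxidation genes, grouped by role. Black points are the fit to all 6 libraries with its 95% interval, red circles the fit without Hdac3 CKO library 1, blue crosses the fit with skeletal muscle markers as a covariate. Every interval stays within the dotted 2-fold lines, and most red and blue marks of the mitochondrial genes lie left of the black points.

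The carnitine shuttle, which moves acyl groups across the mitochondrial membranes, had log2 fold changes of 0.17 to 0.35 for its 4 genes, and none passed the test. Cpt1a, the widely expressed isoform of the outer-membrane transferase that sets the rate of entry, had 36.6, 28.9 and 32.2 CPM in Hdac3 CKO bones, against 29.9, 29.7 and 25.6 CPM in WT bones. The groups overlapped, with a log2 fold change of 0.20 ± 0.14 and an adjusted p of 0.520. Cpt1b, the muscle isoform, had 118.7, 74.3 and 94.7 CPM in Hdac3 CKO bones, against 70.1, 82.7 and 72.2 CPM in WT bones (0.35 ± 0.17, adjusted p 0.371). Its library 2 of the Hdac3 CKO group lay inside the WT range, whereas library 1 was the highest of all 6. Slc25a20, the carrier that exchanges acylcarnitine for carnitine across the inner membrane, had 40.4, 32.8 and 35.2 CPM in Hdac3 CKO bones, against 27.6, 31.9 and 30.7 CPM in WT bones. These groups did not overlap, although the gap was narrow (0.27 ± 0.13, adjusted p 0.383). Cpt2, the inner-membrane transferase, ranged over 20.9 to 32.8 CPM in Hdac3 CKO bones and 20.6 to 25.0 CPM in WT bones.

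The acyl-CoA dehydrogenases take the opening step, each for its own chain length. Acadvl, for very long chains, had 177.9, 121.4 and 142.8 CPM in Hdac3 CKO bones, against 108.4, 125.1 and 108.6 CPM in WT bones (log2 fold change 0.37 ± 0.16, unadjusted p 0.0424, adjusted p 0.316). Hdac3 CKO library 2 lay below WT library 2, so the groups overlapped. Acads, for short chains, had 71.5, 44.5 and 50.5 CPM in Hdac3 CKO bones, against 39.9, 48.9 and 47.4 CPM in WT bones, with library 1 of the Hdac3 CKO group standing above the rest (0.29 ± 0.18). Acadm, for medium chains and a standard marker of the pathway, had 102, 88.1 and 101 CPM in Hdac3 CKO bones, against 94.3, 108 and 94.9 CPM in WT bones. The order was mixed, with a log2 fold change of -0.03 ± 0.13 and a 95% interval of -0.31 to 0.25. Acadl, for long chains, ranged over 171 to 226 CPM in Hdac3 CKO bones and 162 to 191 CPM in WT bones.

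The enzymes of the later steps had log2 fold changes between 0.01 and 0.28, and 0 of 5 passed the test. Acaa2, the mitochondrial thiolase that releases acetyl-CoA, had 176.6, 114.9 and 125.6 CPM in Hdac3 CKO bones, against 100.9, 124.6 and 117.9 CPM in WT bones (0.28 ± 0.18, adjusted p 0.478). Hadhb, the thiolase subunit of the trifunctional protein, had 60.9, 49.9 and 54.2 CPM in Hdac3 CKO bones, against 46.3, 49.3 and 48.3 CPM in WT bones. The groups of Hadhb did not overlap, but Hdac3 CKO library 2 and WT library 2 were nearly equal (0.20 ± 0.13, adjusted p 0.480). Hadha, its divergently transcribed partner and the hydratase and dehydrogenase subunit, ranged over 146 to 196 CPM in Hdac3 CKO bones and 144 to 161 CPM in WT bones. Hadh, which oxidises short 3-hydroxyacyl-CoA, and Echs1, the short-chain hydratase, differed by 0.11 and 0.01 on the log2 scale.

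Unsaturated chains need Decr1, a dienoyl-CoA reductase, and the isomerases Eci1 and Eci2. Eci1 had 37.8, 22.9 and 27.2 CPM in Hdac3 CKO bones, against 21.8, 26.0 and 24.9 CPM in WT bones (log2 fold change 0.27 ± 0.19). Decr1 had 45.1, 38.3 and 42.5 CPM in Hdac3 CKO bones, against 36.6, 40.0 and 39.2 CPM in WT bones (0.12 ± 0.12). Both overlapped between genotypes, and Eci2 differed by 0.0067. Of the electron transfer genes, Etfb, the β subunit of the flavoprotein, had the highest log2 fold change of all 34 members. It had 128, 72.6 and 88.2 CPM in Hdac3 CKO bones, against 65.2, 76.2 and 72.9 CPM in WT bones (0.43 ± 0.20, adjusted p 0.340). Hdac3 CKO library 2 was below 2 of the 3 WT libraries. Its partner subunit Etfa differed by only 0.07, and Etfdh, the membrane oxidoreductase that accepts the electrons, had 65.6, 60.0 and 67.0 CPM in Hdac3 CKO bones, against 59.6, 65.8 and 57.8 CPM in WT bones (0.07 ± 0.12).

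Of the 5 peroxisomal genes, 4 had log2 fold changes below 0 and none passed the test. Ehhadh, the bifunctional hydratase and dehydrogenase, had 5.06, 4.23 and 4.05 CPM in Hdac3 CKO bones, against 5.30, 5.87 and 6.43 CPM in WT bones. All 3 Hdac3 CKO libraries were below all 3 WT libraries, with a log2 fold change of -0.40 ± 0.19 and an adjusted p of 0.348. Abcd3, which imports acyl-CoA into peroxisomes, had 39.2, 41.0 and 45.8 CPM in Hdac3 CKO bones, against 48.0, 54.2 and 46.0 CPM in WT bones (-0.24 ± 0.13, adjusted p 0.419). The separation of Abcd3 rested on 45.8 against 46.0 CPM. Acox3, an oxidase of branched chains, Hsd17b4, the other bifunctional enzyme, and Acaa1a, the peroxisomal thiolase, had log2 fold changes of -0.10, -0.08 and 0.09. The median over the 5 genes was -0.10 and stayed below 0 under all 16 settings, from -0.28 with library totals to -0.083 without WT library 1, and no peroxisomal member passed the test under any of them.

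Among the acyl-CoA synthetases, which activate the fatty acid, Acsl1 had 94.5, 69.4 and 77.5 CPM in Hdac3 CKO bones, against 61.7, 79.2 and 59.5 CPM in WT bones (log2 fold change 0.27 ± 0.16). Acsl3 had 52.6, 68.4 and 65.5 CPM in Hdac3 CKO bones, against 67.1, 74.7 and 73.8 CPM in WT bones (-0.21 ± 0.14). Neither pair of groups was separated. Acsl4, which prefers arachidonate, had 17.3, 47.2 and 27.1 CPM in Hdac3 CKO bones, against 32.9, 34.3 and 31.3 CPM in WT bones. The Hdac3 CKO group thus held both the lowest and the highest Acsl4 value, on either side of a narrow WT range, at a log2 fold change of -0.11. Acsl5 lay at 26.7 to 28.4 CPM in Hdac3 CKO bones, below the 28.9 to 33.7 CPM of WT bones, with a log2 fold change of -0.17.

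The thioesterases, which split acyl-CoA back to the free acid, were low. Acot1, the cytosolic form, had 2.59, 2.37 and 2.46 CPM in Hdac3 CKO bones, against 2.63, 2.81 and 3.17 CPM in WT bones (log2 fold change -0.21 ± 0.21). Acot2, the mitochondrial form, had 5.38, 5.03 and 3.86 CPM in Hdac3 CKO bones, against 5.92, 3.39 and 4.37 CPM in WT bones (0.06 ± 0.24). The groups of Acot1 were separated by a small gap, and those of Acot2 were mixed. Fabp3, the fatty acid binding protein of heart and muscle, had 18.5, 11.8 and 12.3 CPM in Hdac3 CKO bones, against 10.5, 12.6 and 11.2 CPM in WT bones (0.31 ± 0.20). Slc27a1, a fatty acid transporter, had 29.9, 26.4 and 29.7 CPM in Hdac3 CKO bones, against 31.0, 27.0 and 29.4 CPM in WT bones (-0.02 ± 0.13).

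The uncoupling proteins had the highest median of any role, 0.37. Ucp2, a mitochondrial carrier abundant in macrophages and other blood cells, had 125, 126 and 98.8 CPM in Hdac3 CKO bones, against 88.2, 74.5 and 108 CPM in WT bones (0.37 ± 0.17, unadjusted p 0.0496, adjusted p 0.332). Hdac3 CKO library 3 lay below WT library 3. Macrophage markers, 8 genes with none at 0, summed to 578, 561 and 493 CPM in Hdac3 CKO bones and 274, 280 and 289 CPM in WT bones, and their part in the Ucp2 difference was not tested. Ucp3, best known from muscle and brown fat and located next to Ucp2 on chromosome 7, had 7.24, 6.04 and 5.95 CPM in Hdac3 CKO bones, against 4.45, 5.39 and 5.02 CPM in WT bones. The groups of Ucp3 did not overlap (0.37 ± 0.18, adjusted p 0.369). The difference of Ucp3 was 0.26 without Hdac3 CKO library 1 and 0.21 with muscle markers as a covariate, and that of Ucp2 was 0.31 and 0.37.

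**Figure D2:**
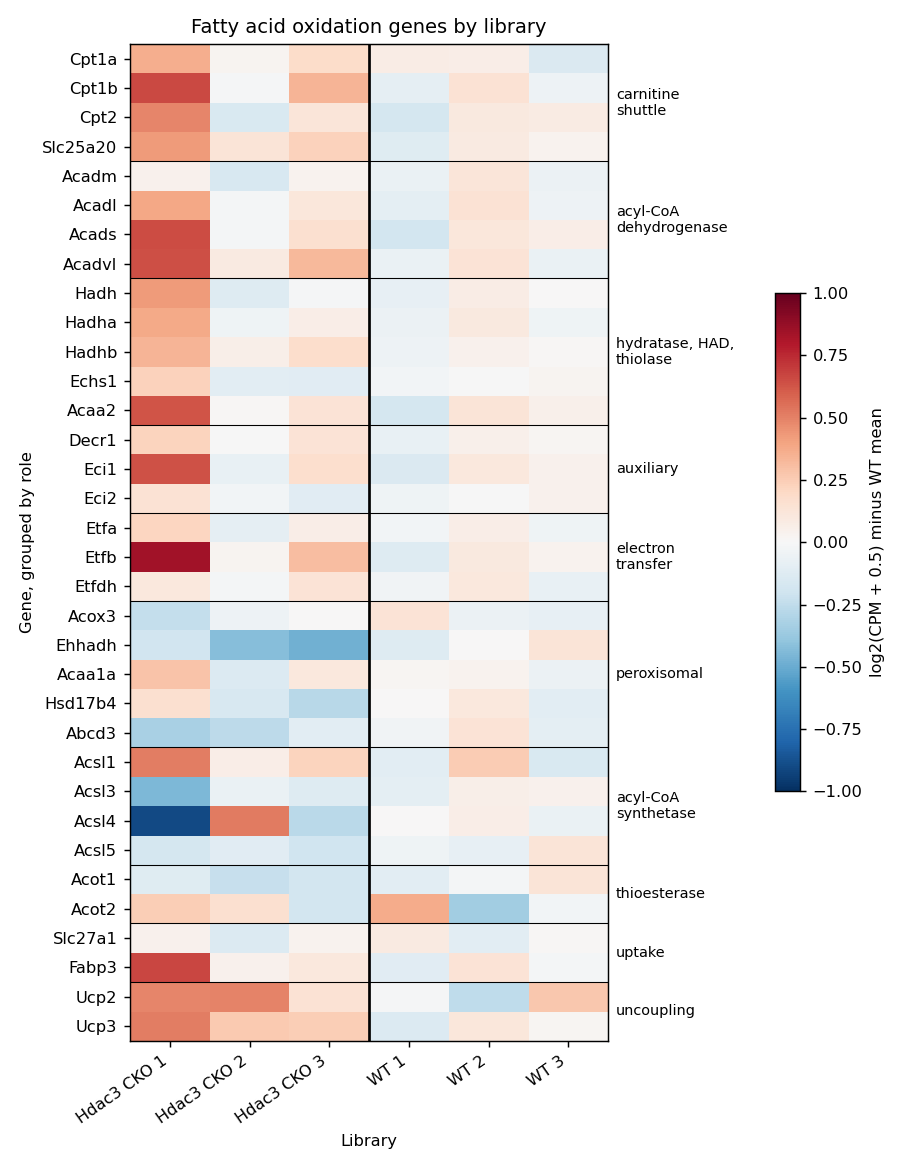
Each cell gives the log2(CPM + 0.5) of a fatty acid oxidation gene (rows, grouped by role) in a library (columns, Hdac3 CKO left of WT), minus the WT mean of that gene. The column of Hdac3 CKO library 1 is red for most mitochondrial genes, while Hdac3 CKO library 2 resembles the WT columns.

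The positive differences were largest in a single library. Hdac3 CKO library 1 had the highest CPM of the 6 libraries for 22 of 34 members (64.7%), compared with 30.3% of all genes tested. For the 19 mitochondrial genes (shuttle, dehydrogenases, later steps, auxiliary enzymes and electron transfer) it was highest for 17. Their median log2 difference from the WT mean was 0.39, -0.023 and 0.14 in the 3 Hdac3 CKO libraries, against -0.075, 0.096 and 0.011 in the WT libraries. Hdac3 CKO library 2 thus lay inside the WT range. The same library 1 had the most skeletal muscle RNA, with marker medians of 0.69, 0.11 and 0.092 in Hdac3 CKO bones and -0.15, 0.17 and -0.027 in WT bones. In the WT group the library with the highest muscle median, library 2, also had the highest mitochondrial median. In the Hdac3 CKO group, library 2 had a slightly higher muscle median than library 3 (0.11 against 0.092) but a lower mitochondrial median (-0.023 against 0.14). The part of muscle RNA in the mitochondrial differences was not tested.

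Without Hdac3 CKO library 1 the median log2 fold change of the 34 members was 0.017, with 18 above 0, and that of the 19 mitochondrial genes was 0.045, with 13 above 0 where 18 were above 0 in the full comparison. With the muscle marker level as a covariate, the mitochondrial median was -0.026 and 8 of 19 genes were above 0. Of the 20 muscle markers 17 had log2 fold changes above 0, with a median of 0.31, and 0 passed the test. The 3 with the highest mean CPM had log2 fold changes of 0.45 (Acta1), 0.12 (Myh8) and -0.01 (Ttn). The ratio of the highest to the lowest library of a group had a median over members of 1.29 in Hdac3 CKO bones and 1.17 in WT bones, and was wider in the Hdac3 CKO group for 27 of 34 members (79.4%). Over the 20127 tested genes with a count in every library the medians were 1.43 in Hdac3 CKO bones and 1.27 in WT bones, and 69.2% were wider in the Hdac3 CKO group.

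**Figure D3:**
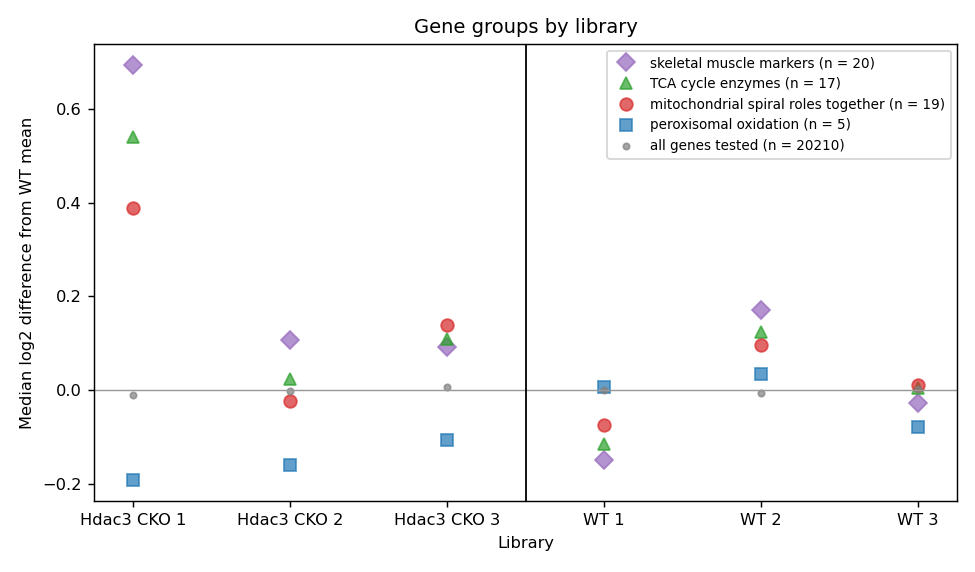
Median log2 difference from the WT mean (vertical axis) of each gene group in each library (horizontal axis, Hdac3 CKO left of WT). In Hdac3 CKO library 1 the muscle markers (0.69), tricarboxylic acid (TCA) cycle enzymes (0.54) and mitochondrial oxidation genes (0.39) are all raised, the peroxisomal genes are at -0.19, and the median of all genes stays at -0.012.

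The scaling also mattered for the sign. Hdac3 CKO library 1 had the lowest TMM factor, 0.88, where the other libraries had 0.95 to 1.09. A lower factor gives higher CPM, so the excess of library 1 depends in part on the scaling. How far it holds with library totals was not tested. Scaled by library totals alone, the median of all genes moved to -0.18, that of the members to -0.075 and that of the mitochondrial genes to -0.024. Over all genes, rises then made up 32.6% of the calls, where they made up 59.7% with TMM. Under either scaling 24 of 34 members lay above the all-gene median. A change of scaling shifts nearly all genes alike, so this count could hardly move and is no check. It was 14 with the muscle covariate, 18 without Hdac3 CKO library 1, and 21 and 22 with log2 RPKM at pseudocounts of 1 and 0.1. The uncoupling proteins, only 2 genes, kept a median above 0 under every setting run, from 0.18 with library totals to 0.53 without the cartilage-rich libraries. Neither gene passed the test under any setting, and the settings reuse the same libraries.

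Levels were compared between members as CPM per kilobase of gene length. The length is that given in the count table, such as 9093 bases for Acox3 and 1515 for Acaa2. It may differ from the length of the transcripts present, so ranks between genes depend on it. Acadl was highest, with a mean of 97.1 in Hdac3 CKO bones and 86.4 in WT bones, followed by Acaa2 (91.8 and 75.6) and Etfb (84.6 and 62.7). The ranges of these genes touched, so their order is not firm. At the low end were Ucp3 (2.04 in Hdac3 CKO bones and 1.58 in WT bones), Acot1 (1.59 and 1.84), Acox3 (1.77 and 1.89), Ehhadh (1.47 and 1.94) and Acot2 (2.17 and 2.08), also within reach of each other. The flavoprotein subunits and Acadl, Acaa2, Acadvl and Acadm held the 6 highest WT means, while the peroxisomal members lay between rank 14 (Abcd3) and rank 32 (Acox3) of 34. Cpt1b, the muscle isoform, exceeded Cpt1a per kilobase in all 6 libraries, 4.13-, 3.28- and 3.74-fold in Hdac3 CKO bones and 2.99-, 3.56- and 3.60-fold in WT bones. That ratio rests on a gene whose reads are shared, as described further on.

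**Figure D4:**
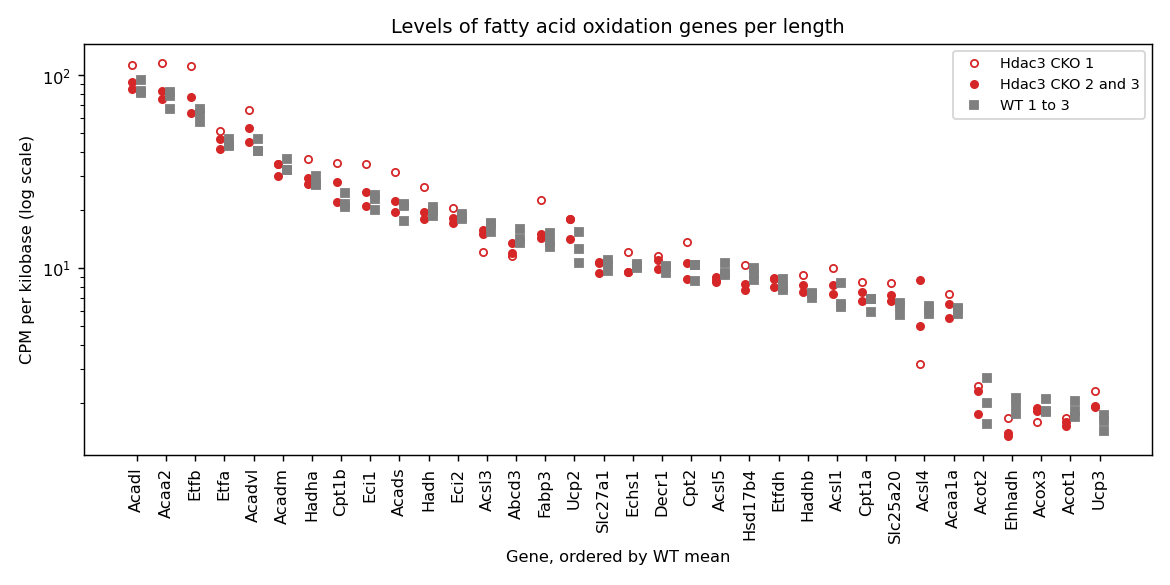
CPM per kilobase (log axis) of each fatty acid oxidation gene in each library, genes ordered by WT mean. Red circles are Hdac3 CKO libraries, open for library 1, and grey squares are WT libraries. The WT means run from 86.4 for Acadl to 1.58 for Ucp3, and most open circles stand at the top of their gene's column.

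Of 98 further genes of the pathway, 90 were tested, of which 3 rose and 0 fell, where 0.703% of all genes tested rose and 0.475% fell. All 3 belong to the 22 tested PPAR regulators and targets. The lists were chosen with earlier results of these data known, so the number of calls in a list is a description only. Angptl4 (chr17:33773750-33781575), a secreted inhibitor of lipoprotein lipase, had 36.9, 22.6 and 35.2 CPM in Hdac3 CKO bones, against 5.96, 8.41 and 6.45 CPM in WT bones. The lowest Hdac3 CKO value was well above the highest WT value, and the log2 fold change of 2.19 ± 0.22 (adjusted p 0.00695) kept its call whichever single library was left out, but not without both cartilage-rich libraries (adjusted p 0.0991). Ucp1, the uncoupling protein of brown fat, had 6.15, 2.19 and 5.14 CPM in Hdac3 CKO bones, against 0.564, 0.776 and 0.854 CPM in WT bones (2.62 ± 0.40, adjusted p 0.0207). Its call was lost without Hdac3 CKO library 3 (0.0738) or without WT library 1 (0.0885), 2 (0.0762) or 3 (0.0583). Fgf21, a hormone of the fasting response, had 22, 12 and 26 counts in Hdac3 CKO bones, against 4, 0 and 2 counts in WT bones (3.51 ± 0.72, adjusted p 0.0397). The call of Fgf21 held in 1 of 6 omissions, that of Hdac3 CKO library 2 (0.0418), and reached 0.0843, 0.120, 0.107, 0.156 and 0.148 in the rest. Ucp1 is also on the adipocyte marker list, where it was the only 1 of 8 tested genes that rose. Adipoq, the adipocyte hormone, had 2.47, 1.06 and 2.39 CPM in Hdac3 CKO bones, against 0.939, 3.64 and 1.36 CPM in WT bones. The adipocyte markers summed to 61.3 to 77.9 CPM in Hdac3 CKO bones and 46.3 to 60.8 CPM in WT bones. Those sums include Ucp1 itself, so they are no separate measure of adipocyte RNA. The list's median log2 differences from the WT mean overlapped, at 0.31, 0.15 and 0.45 in Hdac3 CKO bones and -0.27, 0.34 and -0.16 in WT bones. The part of adipocyte RNA in the Ucp1 difference was not tested.

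None of the 37 tested enzymes of oxidation outside the members rose or fell, with 6 at an unadjusted p under 0.05, a share close to the 15.0% of all genes. Those of smallest p were Acot7, a brain-rich thioesterase (log2 fold change 0.49 ± 0.17), Crot, the peroxisomal octanoyltransferase (-0.41 ± 0.15), Ech1, a dienoyl-CoA isomerase (0.37 ± 0.14), and Acadsb, for short branched chains (-0.42 ± 0.17). Crot had 20.0, 24.5 and 25.7 CPM in Hdac3 CKO bones, against 30.0, 35.2 and 28.2 CPM in WT bones, without overlap. Of 14 tested genes of uptake, lipolysis and binding 0 were called by edgeR. Plin2, a lipid droplet coat protein, had 53.1, 37.3 and 37.7 CPM in Hdac3 CKO bones, against 27.0, 28.7 and 28.3 CPM in WT bones. It was separated between the genotypes (0.61 ± 0.16, adjusted p 0.117) and was called by DESeq2 (adjusted p 0.0348). Pnpla2, the lipase that opens droplet triglyceride breakdown, differed by 0.49 ± 0.16, Plin5, a droplet protein of oxidative tissue, by 0.54 ± 0.23, and Slc27a6, an uptake protein, by -0.60 ± 0.20, none past the adjusted threshold. Rxrb, a partner of the PPARs, differed by 0.46 ± 0.13 with an adjusted p of 0.157.

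The TCA cycle, which takes up the acetyl-CoA of fatty acid oxidation, gave 0 calls among 17 enzymes. Their median log2 fold change was 0.25, and Hdac3 CKO library 1 was highest for 14 of them. Sdhb, a subunit of succinate dehydrogenase, had 193.4, 130.6 and 133.1 CPM in Hdac3 CKO bones, against 111.1 to 124.3 CPM in WT bones, without overlap (0.36 ± 0.17, adjusted p 0.355). Idh3b, a subunit of isocitrate dehydrogenase, and Mdh2, the malate dehydrogenase of mitochondria, differed by 0.31 and 0.38. Without Hdac3 CKO library 1 the median of the 17 enzymes was 0.067.

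**Figure D5:**
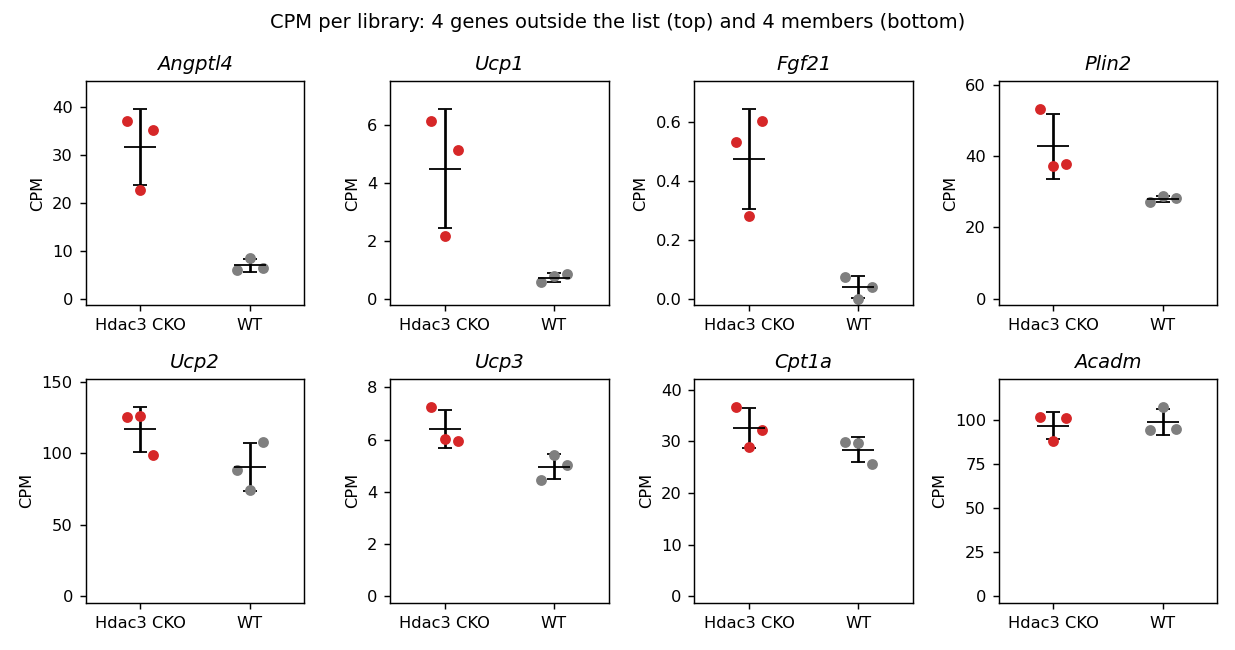
CPM of 8 genes in Hdac3 CKO (red) and WT (grey) libraries, with mean and SD (n = 3 each). The genotypes do not overlap for Angptl4, Ucp1, Fgf21 and Plin2 (top), whereas among the members (bottom) they are separated for Ucp3 and overlap for Ucp2, Cpt1a and Acadm.

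Some members share sequence or position with other genes, so their counts are uncertain. In the count table the span of Chkb covers all of Cpt1b (chr15:89416405-89425863), and in the GENCODE M21 annotation 78.6% of the 50-base words of Cpt1b occur in Gm44502, a model on the same strand. Acadvl overlaps Dvl2, on the opposite strand, over 42.9% of its exon bases. The strand setting of the counting is not given in the sources used here, so reads of Acadvl and Dvl2 cannot be told apart there. Etfb overlaps Gm45233 over 53.0% of its exon bases in GENCODE M21. Neither Gm45233 nor Gm44502 overlaps these members in the count table, where the only gene over Etfb is Mir7051 (0.533% of the span of Etfb). Acot1 and Acot2 share 13.6% and 24.5% of their words with each other, Fabp3 shares 29.2% with a pseudogene, Hadhb 18.1% with the pseudogene Gm13910 and Acaa1a 12.4% with Acaa1b. In all, 10 of 34 members shared over 5% of their words with a single other gene, and 13 when the words found in any other gene were pooled. The members of smallest p, Acadvl, and of highest fold change, Etfb, are among these.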

How the data were processed

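RNA from limb bone was read in 6 libraries, 3 per genotype. The authors deposited raw read counts for each gene. The tools named per the submitters' processing notes are TopHat2 2.1.0, featureCounts of Subread, and bcl2fastq 1.8.4, with the mm10 build. The kit was TruSeq v2 for mRNA, per the labels' protocols. What strand setting, annotation release or handling of multi-matching reads applied is not given in the sources used here. The authors also deposited RPKM values, used only as an alternative. They imply library totals of which 72.1% to 87.0% lay in genes.

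Libraries were grouped by the genotype label. Counts were scaled by TMM in edgeR 4.0.16 (R 4.3.3). The filter on low counts left 20210 genes, with 99.9% of all counts. Total counts were 43389262 to 50927978 per library. The genotypes were compared by the quasi-likelihood test of edgeR with robust moderation, no covariate and 4 residual degrees of freedom, with Benjamini-Hochberg adjustment over all genes tested and a threshold of 0.05. Differences per library are of log2(CPM + 0.5). The pipeline was tested on simulated data. The members and all gene lists were chosen with earlier results of these data known. Named genes are all called ones, members at an unadjusted p under 0.05, the 2 of smallest p in each role, Cpt1a and Acadm, the 4 of smallest p in each pathway list and the 3 highest muscle genes, and the remaining members are given in brief. Adipoq was added after its values were seen. The values of 1 gene that the rule names are not reported here. Alternatives were other scalings, no filter, DESeq2 1.42.0, limma 3.58.1 on counts and on log2 RPKM with pseudocounts of 1 and 0.1, a muscle covariate and omission of each library. Omission of both cartilage-rich libraries was chosen after seeing the data. Promoter windows are RefSeq's, on GRCm38.p6. Windows of Cpt1b, Decr1, Hsd17b4 and Acaa2 were not used here.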

Additional observations from a re-analysis of the deposited data

How the results depend on the processing

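The members gave 0 calls in either direction under every alternative run. Their median log2 fold change of 0.12 was -0.075 with library totals, -0.017 and -0.020 with log2 RPKM at pseudocounts of 1 and 0.1, and -0.028 with the muscle covariate. It ranged from 0.017 (without Hdac3 CKO library 1) to 0.213 (without Hdac3 CKO library 2) over the omissions of 1 library. With the muscle covariate 14 of 34 members changed sign. Of these, 6 moved from over 1 SE away from 0 (Acads to -0.026, Acaa2 to -0.022, Eci1 to -0.037, Fabp3 to -0.030, Acadl to -0.030 and Hadha to -0.053). Acta1 also changed sign (-0.063), but it is a muscle marker and so part of the covariate, which makes it no separate check. The 238 genes called over all genes (142 that rose and 96 that fell) became 828 with DESeq2, 157 with limma-voom, 96 and 140 with RPKM at pseudocounts of 1 and 0.1, and 67 with the muscle covariate. Rises made up 59.7% of calls with TMM, 32.6% with library totals, and 38.5% and 36.4% with RPKM at the same pseudocounts. The 3 pathway genes that rose became 5 with DESeq2 and 1 each with limma-voom, RPKM at a pseudocount of 1 and the muscle covariate. Over the omissions of 1 library, 23 (without WT library 1) to 175 (without Hdac3 CKO library 1) genes were called, with 46, 35 and 105 without Hdac3 CKO library 3, WT library 2 and WT library 3, and 1 to 3 pathway genes rose. Without both cartilage-rich libraries (2 against 2) edgeR called 0 genes, with 2309 genes at an unadjusted p under 0.05. The omissions also left fewer libraries. The cause of these shifts was not tested. No paired analysis was possible because the labels give the genotypes no shared replicate numbers. Depth limits Fgf21, with 6 counts over the WT libraries, while the lowest count of a member in any library was 101.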
